A study of Mus musculus with 3 samples.

Results

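Collagen genes were taken as the genes of the deposited count matrices whose symbol has the form Col, a number, a and a second number, which selected 44 of the 32285 genes. All 44 had at least 1 unique molecular identifier (UMI, 1 tagged RNA molecule) in the kept cells. They comprise 11 fibrillar collagens, 6 genes of the type IV collagens of basement membranes, 6 of the type VI family, 9 fibril-associated collagens, 4 transmembrane collagens, 3 short-chain collagens, both multiplexins and 3 others. The rule used gene symbols and no measured value, but the family was chosen with earlier results of these data known.

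Single-cell RNA sequencing was performed on hypothalami of 8-week-old male mice, with 1 library for each of 3 groups. QS mice had been exposed to heat and had then recovered, HS mice were in the heat-exposed state, and PF mice were pair-fed, that is, kept as a control for food intake matched to that under heat. Tissue from each group was digested with collagenase II, broken up mechanically and run on the 10x Genomics 3′ platform. The labels do not state how many mice were pooled into a library, which strain they were or how long recovery lasted, and an RT group named in the study design was not analysed here.

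Collagens are secreted or membrane-bound proteins of 3 chains wound into a triple helix. Fibrillar collagens form the cables of connective tissue, type IV collagens form the sheet of the basement membrane, and the remaining families link, cap or anchor these structures. In the brain most connective tissue lies in the meninges and around vessels, where fibroblasts, pericytes and smooth muscle cells sit, while endothelial cells and pericytes share a basement membrane along capillaries. Tanycytes are elongated glial cells that line the floor of the third ventricle in the hypothalamus, beside the ciliated ependymal cells.

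The files held 11720 barcodes and 93295920 UMIs in QS, 12510 barcodes and 103891747 UMIs in HS, and 12836 barcodes and 100727912 UMIs in PF. After filtering, 10782 cells remained in QS, 11630 in HS and 11858 in PF, with median UMIs per cell of 6162 in QS, 6298 in HS and 6143 in PF. Cells were grouped by clustering without the collagen genes, and clusters were named from marker genes, so each class carries "-like". Between 31 and 42 barcodes were shared by any pair of libraries. The 13 fibroblast markers summed to 33330 CPM in QS, 24300 CPM in HS and 28170 CPM in PF in fibroblast-like cells, where CPM relate, on the usual scale of counts per 1000000, a gene's UMIs to all UMIs of the class, and to 27.3 CPM in QS, 53.1 CPM in HS and 70.3 CPM in PF in microglia-like cells. Other classes held more of them, with 1634 CPM in QS, 2217 CPM in HS and 2341 CPM in PF in oligodendrocyte-like cells. Pericyte-like cells had 1082 CPM in QS, 1040 CPM in HS and 1055 CPM in PF. The 12 tanycyte markers summed to 2228 CPM in QS, 2912 CPM in HS and 2534 CPM in PF in tanycyte-like cells, with Nr5a2 at 0 in HS and PF, and the 12 astrocyte markers summed to 2980 CPM in QS, 3107 CPM in HS and 2900 CPM in PF there. The class held 1062 cells in clusters 13 and 26. Of these cells 261 were tanycytes by a marker gate applied to each cell. Cluster 26 was named from 8 of the 12 markers and cluster 13 from 5, and under 3 alternatives the class kept 37 to 43 cells in PF, against 191 here, so tanycyte-like shares and class levels rest on the naming of cluster 13. Because a group is a single library, no test was made, no p-value is given, and differences between mice are unmeasured. Levels and ratios carry exact 95% intervals that cover counting error only. A ratio was called higher or lower when it reached 1.5-fold with an interval that left out 1. The library with the higher CPM also had to hold at least 30 UMIs. Where a class held fewer UMIs in 1 library, a call of higher there needed a higher level than a call of lower.

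Fibroblast-like cells had the highest collagen level per UMI of the 12 classes that held at least 50 cells in every library. All collagen genes together reached 7822 CPM in QS, 6579 CPM in HS and 6537 CPM in PF in these cells. Tanycyte-like cells came next, with 4133 CPM in QS, 5414 CPM in HS and 4794 CPM in PF. Pericyte-like cells had 1469 CPM in QS, 1469 CPM in HS and 1412 CPM in PF. The other classes stayed below 1000 CPM, down to 101 CPM in QS, 78.4 CPM in HS and 98.8 CPM in PF in T/NK-like cells. Col20a1 overlaps BX649560.1, Col24a1 D530037P16Rik and Col26a1 Gm20485 on the same strand, so their counts may be divided. Col4a1, Col4a2, Col4a3, Col5a1, Col6a4, Col9a3, Col10a1, Col12a1, Col14a1, Col15a1, Col18a1, Col22a1 and Col24a1 each overlap a gene on the opposite strand. Counts are not stated to use strand, and reads there would be shared only if it was not used. The order of the leading 3 classes was the same in every library.

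A gene was described in a class when, in at least 1 library, it reached 50 CPM and 30 UMIs there and 20% of its level in its highest class. By this rule 29 of the 44 genes were described in at least 1 class, namely 22 in fibroblast-like, 6 in tanycyte-like, 5 in pericyte-like, 5 in ependymal-like, 4 in smooth muscle-like and 2 in endothelial-like cells, and 1 each in microglia-like and oligodendrocyte-like cells. Fibroblast-like cells were the highest class for 18 of the 29, and 25 of the 29 had the same highest class in all 3 libraries. The heat map of levels shows a block of fibroblast-like genes, a type IV block shared by the vascular classes, and a few genes each for tanycyte-like, ependymal-like, microglia-like and oligodendrocyte-like cells.

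**Figure D1:**
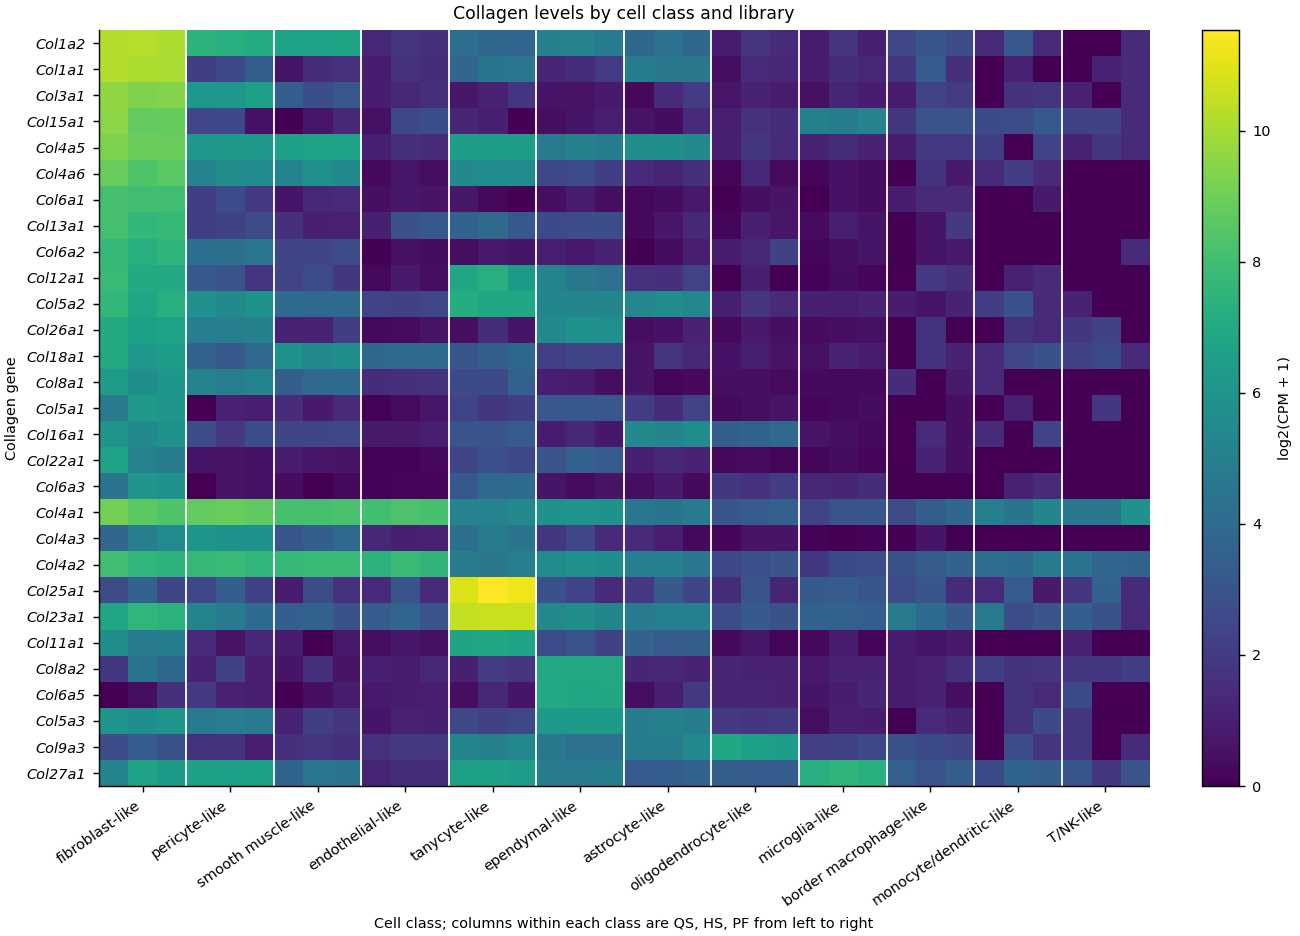
Level of the 29 described collagen genes (rows, by the class in which they were highest) in 12 cell classes (columns, with QS, HS and PF side by side in each), as log2(CPM + 1). Within a class some genes had close levels across libraries and others did not. In fibroblast-like cells Col1a1 had 1183 CPM in QS, 1112 CPM in HS and 1067 CPM in PF. Col22a1 had 97.5 CPM in QS, 33.8 CPM in HS and 27.7 CPM in PF there.

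Collagen UMIs made up 646 CPM of the QS library (95% interval 641 to 652), 996 CPM of HS (989 to 1002) and 749 CPM of PF (744 to 755). Fibroblast-like cells held 5.69% of the collagen UMIs in QS, 17.2% in HS and 20.4% in PF, while forming 0.649% of the cells in QS (70 cells), 2.84% in HS (330 cells) and 2.62% in PF (311 cells). Tanycyte-like cells held 22.9% of the collagen UMIs in QS, 28.8% in HS and 12.4% in PF, and formed 3.23% of the cells in QS, 4.50% in HS and 1.61% in PF. The order of the libraries was thus the same for the share of cells and the share of collagen UMIs in tanycyte-like cells, and QS was lowest on both measures in fibroblast-like cells. Whether such cells were fewer in the tissue or fewer in the suspension cannot be told apart.

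**Figure D2:**
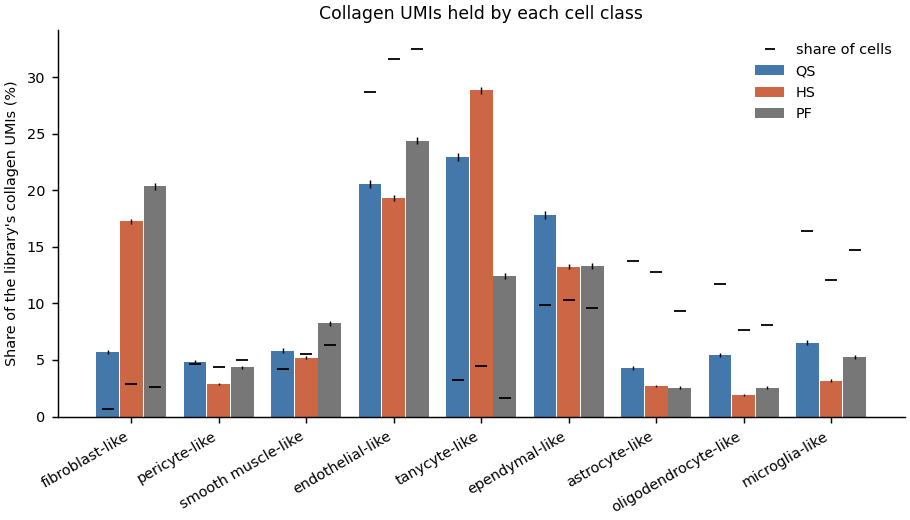
Share of each library's collagen UMIs held by 9 cell classes (bars with exact 95% intervals, QS, HS and PF from left to right), with the share of the library's cells marked by a black dash. Fibroblast-like, tanycyte-like and ependymal-like cells held a larger share of the collagen UMIs than of the cells in every library. The fibroblast-like bar was 5.69% in QS, against 17.2% in HS and 20.4% in PF.

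Among the fibrillar collagens, Col1a1 and Col1a2 encode the chains of type I collagen, the main protein of connective tissue fibrils. Col1a1 lies on mm10 chr11:94936224-94953042 on the plus strand and Col1a2 on chr6:4504814-4541544 on the plus strand. In fibroblast-like cells Col1a1 had 1183 CPM in QS, 1112 CPM in HS and 1067 CPM in PF, and Col1a2 had 1170 CPM in QS, 1198 CPM in HS and 1112 CPM in PF. Neither reached 1.5-fold between any pair of libraries, the QS/PF ratios being 1.11 (1.0 to 1.23) for Col1a1 and 1.05 (0.95 to 1.16) for Col1a2. Col3a1, the type III chain that joins type I fibrils in soft tissue, had 785 CPM in QS, 621 CPM in HS and 680.3 CPM in PF. All 3 genes were led by this class in every library.

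The balance of the type I chains separated the classes. The number of Col1a1 UMIs per Col1a2 UMI was 1.01 in QS, 0.928 in HS and 0.96 in PF in fibroblast-like cells. It was 0.0197 in QS, 0.0331 in HS and 0.0747 in PF in pericyte-like cells and 0.00575 in QS, 0.0181 in HS and 0.0202 in PF in smooth muscle-like cells, where Col1a2 was well above Col1a1. Ependymal-like cells gave 0.0438 in QS, 0.055 in HS and 0.116 in PF. In astrocyte-like cells it was 2.1 in QS, 1.25 in HS and 1.64 in PF, above fibroblast-like cells in QS and PF, while the HS intervals of the 2 classes overlapped. The 2 genes differ in length and in how their 3′ ends are counted, so a ratio is comparable between classes and not as a number of chains. All 3 libraries placed pericyte-like, smooth muscle-like and ependymal-like cells below fibroblast-like cells, with intervals that did not overlap.

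Pericyte-like cells had 173 CPM in QS, 148 CPM in HS and 136 CPM in PF of Col1a2, and smooth muscle-like cells had 102 CPM in QS, 100.5 CPM in HS and 105 CPM in PF. To set these beside background, cells with at least 2000 UMIs were thinned to 2000 UMIs, and cells with fewer were left out of the thinned shares. Col1a2 was then found in 27.2% in QS, 23.3% in HS and 22.7% in PF of pericyte-like cells, and in 0.302% in QS, 0.469% in HS and 0.124% in PF of microglia-like cells, a class that should lack it. Col1a1 was found in 84.1% in QS, 85.3% in HS and 86.2% in PF of fibroblast-like cells, and in 0.236% in QS, 0.903% in HS and 1.01% in PF of pericyte-like cells. In microglia-like cells Col1a1 was found in 0.0604% in QS, 0.156% in HS and 0.311% in PF. The pericyte-like share was the higher of the 2 in each library, with intervals that overlapped. Astrocyte-like cells lay above both, with Col1a1 in 6.27% in QS, 4.66% in HS and 3.77% in PF. Median UMIs before thinning were 4986 in QS, 7352 in HS and 6586 in PF for fibroblast-like cells, 3435 in QS, 3475 in HS and 3360 in PF for pericyte-like cells, 3522 in QS, 3799 in HS and 3424 in PF for astrocyte-like cells, and 8027 in QS, 7542 in HS and 7634 in PF for microglia-like cells. The shares without thinning cover all cells of a class, so they differ from the thinned ones in cells as well as depth. Without thinning, Col1a2 was found in 37.4% in QS, 33.5% in HS and 33.2% in PF of pericyte-like cells. Col1a1 was found in 94.3% in QS, 92.1% in HS and 97.1% in PF of fibroblast-like cells and 0.565% in QS, 1.29% in HS and 1.09% in PF of microglia-like cells.

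The minor fibrillar collagens were spread over more classes. Col5a1, Col5a2 and Col5a3 encode type V chains, which regulate fibril thickness. Col5a2 had 200.1 CPM in QS, 112 CPM in HS and 152 CPM in PF in fibroblast-like cells and 140.4 CPM in QS, 120.1 CPM in HS and 115 CPM in PF in tanycyte-like cells. Col5a3 was highest in ependymal-like cells, with 75.4 CPM in QS, 76.6 CPM in HS and 76 CPM in PF, and Col5a1 in fibroblast-like cells, with 25.7 CPM in QS, 74.1 CPM in HS and 64 CPM in PF. The 3 type V chains therefore did not share a leading class. Col11a1, a type XI chain best known from cartilage, was highest in tanycyte-like cells with 107 CPM in QS, 115 CPM in HS and 99.3 CPM in PF. Col27a1, a fibrillar collagen also known from cartilage, was highest in microglia-like cells, with 155 CPM in QS, 179 CPM in HS and 159 CPM in PF. It was found in 25.9% in QS, 30.6% in HS and 26.9% in PF of microglia-like cells after thinning, and in 0.229% in QS, 0.417% in HS and 0.439% in PF of endothelial-like cells. Pericyte-like cells had 95.4 CPM in QS, 89.4 CPM in HS and 96.4 CPM in PF of Col27a1.

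The type IV genes lie in head-to-head pairs. Col4a1 and Col4a2, whose chains form the common basement membrane network, have starts 21 base pairs apart on opposite strands of chromosome 8. Col4a5 and Col4a6, whose chains form a network found in selected basement membranes, have starts 1343 base pairs apart on the X chromosome. The windows from 250 bases before to 50 bases after the start are given from RefSeq (GRCm38.p6), because the members of each pair are compared below. They are Col4a1 at chr8:11312777-11313076 (minus strand), Col4a2 at chr8:11312555-11312854 (plus strand), Col4a5 at chrX:141475169-141475468 (plus strand) and Col4a6 at chrX:141474027-141474326 (minus strand). Each is written 5′ to 3′ on its gene's strand. For Col4a1 and Col4a2 capitals mark the 78 bases that the windows share, as reverse complements of each other, and for Col4a5 and Col4a6, whose windows share 0 bases, capitals mark motif matches.
Col4a1: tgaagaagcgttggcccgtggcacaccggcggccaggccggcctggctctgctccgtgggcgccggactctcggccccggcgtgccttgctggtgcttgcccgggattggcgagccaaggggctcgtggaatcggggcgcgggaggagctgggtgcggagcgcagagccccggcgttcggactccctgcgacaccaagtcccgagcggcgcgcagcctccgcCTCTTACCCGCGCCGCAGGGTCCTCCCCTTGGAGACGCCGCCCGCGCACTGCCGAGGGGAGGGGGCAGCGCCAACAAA
Col4a2: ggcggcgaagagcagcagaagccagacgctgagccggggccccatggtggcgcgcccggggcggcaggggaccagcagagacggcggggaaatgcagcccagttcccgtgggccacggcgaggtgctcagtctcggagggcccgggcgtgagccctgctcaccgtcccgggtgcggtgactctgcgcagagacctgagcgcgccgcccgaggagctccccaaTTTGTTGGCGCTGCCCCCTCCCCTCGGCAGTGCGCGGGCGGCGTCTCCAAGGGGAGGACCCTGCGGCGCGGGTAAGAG
Col4a5: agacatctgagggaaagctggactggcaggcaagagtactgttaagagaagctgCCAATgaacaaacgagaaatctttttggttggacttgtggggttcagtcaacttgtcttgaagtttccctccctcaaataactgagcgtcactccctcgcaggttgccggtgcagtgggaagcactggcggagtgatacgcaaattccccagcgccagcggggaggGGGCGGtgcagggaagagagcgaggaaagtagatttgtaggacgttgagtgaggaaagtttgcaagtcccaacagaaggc
Col4a6: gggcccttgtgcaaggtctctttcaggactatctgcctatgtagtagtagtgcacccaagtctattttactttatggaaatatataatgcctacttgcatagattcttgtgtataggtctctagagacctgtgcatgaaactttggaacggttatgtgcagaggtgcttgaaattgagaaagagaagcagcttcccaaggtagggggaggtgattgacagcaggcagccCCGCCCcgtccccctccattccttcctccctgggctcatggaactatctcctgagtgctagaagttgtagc

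Windows were searched on both strands for 3 motifs. The GC box core was spelled GGGCGG. The second motif was spelled CCAAT, as in the box of that name. The TATA box was spelled TATAAA. The Col4a1 window held 1 GGGCGG and 1 CCAAT, both on its reverse strand, and the Col4a2 window held 3 GGGCGG and 1 CCAAT. The Col4a5 window held 1 GGGCGG and 1 CCAAT, and the Col4a6 window held 1 GGGCGG. None of these 4 windows held TATAAA. Over all 32851 windows of the table, GGGCGG was present in 35.7%, CCAAT in 37.4% and TATAAA in 13.6%, and of the 38 windows that matched 35 of the collagen genes, 23 held GGGCGG, 13 CCAAT and 5 TATAAA. A match describes the letters and is not evidence of binding.

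Col4a1 and Col4a2 were measured in every vascular class. Col4a1 had 435 CPM in QS, 457 CPM in HS and 416 CPM in PF in pericyte-like cells, 260.5 CPM in QS, 319 CPM in HS and 286 CPM in PF in endothelial-like cells and 289 CPM in QS, 292 CPM in HS and 294 CPM in PF in smooth muscle-like cells. Fibroblast-like cells had 549 CPM in QS, 394 CPM in HS and 322 CPM in PF, so they were above pericyte-like cells in QS and below them in HS and PF. Col4a2 had 204 CPM in QS, 215 CPM in HS and 190.4 CPM in PF in pericyte-like cells, 170.2 CPM in QS, 218 CPM in HS and 187 CPM in PF in endothelial-like cells and 203 CPM in QS, 223 CPM in HS and 219 CPM in PF in smooth muscle-like cells. Col4a1 UMIs per Col4a2 UMI were 2.13 in QS, 2.12 in HS and 2.18 in PF in pericyte-like cells and 1.53 in QS, 1.47 in HS and 1.53 in PF in endothelial-like cells. Smooth muscle-like cells gave 1.43 in QS, 1.31 in HS and 1.34 in PF. Pericyte-like cells were above endothelial-like and smooth muscle-like cells in every library, with intervals that did not overlap.

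Col4a5 and Col4a6 were led by fibroblast-like cells, with Col4a5 at 618 CPM in QS, 481 CPM in HS and 479 CPM in PF and Col4a6 at 464 CPM in QS, 331 CPM in HS and 380 CPM in PF. Smooth muscle-like cells had 90.1 CPM in QS, 101 CPM in HS and 102 CPM in PF of Col4a5. Col4a5 UMIs per Col4a6 UMI were 1.33 in QS, 1.45 in HS and 1.26 in PF in fibroblast-like cells and 32.8 in QS, 40.9 in HS and 22.1 in PF in astrocyte-like cells, where Col4a6 was close to 0. Col4a3, which encodes a chain of the kidney and lung basement membrane network, was highest in pericyte-like cells with 65.8 CPM in QS, 58.3 CPM in HS and 58.6 CPM in PF. Its partner Col4a4 did not reach 50 CPM in a class.

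**Figure D3:**
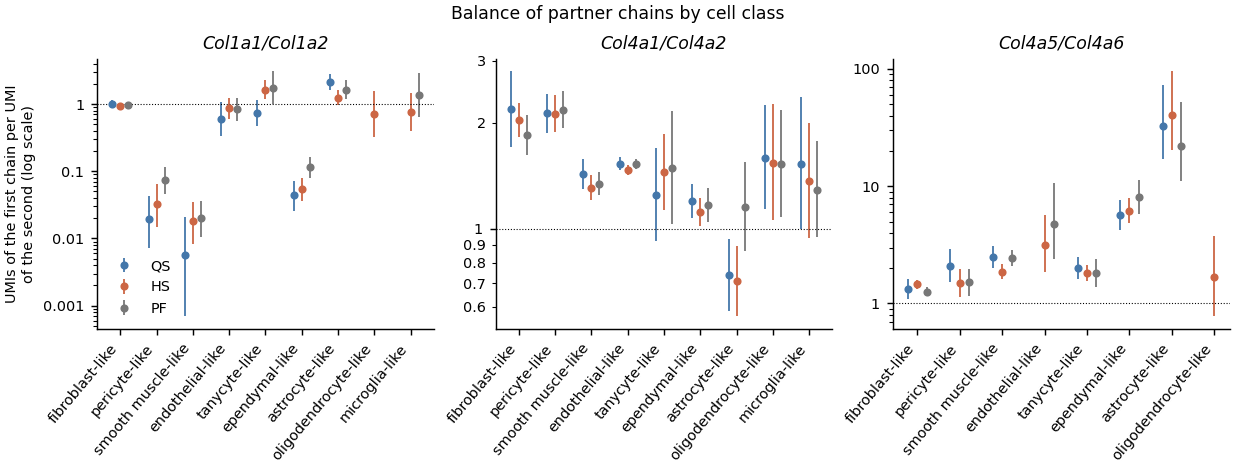
UMIs of the first chain per UMI of the second for Col1a1/Col1a2, Col4a1/Col4a2 and Col4a5/Col4a6, on log axes, by cell class, with QS, HS and PF from left to right and exact 95% counting intervals. Col1a1/Col1a2 in PF was 0.96 in fibroblast-like and 0.0747 in pericyte-like cells, while Col4a1/Col4a2 in PF was 1.84 in fibroblast-like and 2.18 in pericyte-like cells.

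Type VI collagen forms beaded filaments that link cells to the surrounding matrix. Col6a1 had 282 CPM in QS, 253 CPM in HS and 256 CPM in PF in fibroblast-like cells, Col6a2 had 203 CPM in QS, 153 CPM in HS and 185 CPM in PF and Col6a3 had 20.5 CPM in QS, 63.6 CPM in HS and 57.3 CPM in PF. Col6a1 UMIs per Col6a2 UMI were 1.39 in QS, 1.66 in HS and 1.38 in PF in fibroblast-like cells and 0.194 in QS, 0.303 in HS and 0.133 in PF in pericyte-like cells. Col6a5 had another leading class, with 125 CPM in QS, 114 CPM in HS and 119 CPM in PF in ependymal-like cells. Col8a2, a short-chain collagen best known from the basement membrane of the cornea, was also highest in ependymal-like cells, with 123 CPM in QS, 124 CPM in HS and 122 CPM in PF. Neither gene differed by 1.5-fold between libraries there, with HS/PF ratios of 0.957 (0.892 to 1.03) for Col6a5 and 1.01 (0.943 to 1.08) for Col8a2. Col8a1, its short-chain relative, was highest in fibroblast-like cells with 79.5 CPM in QS, 52.1 CPM in HS and 66.4 CPM in PF. In QS 25.8% of its 31 UMIs there came from 1 cell.

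Fibril-associated collagens sit on the surface of fibrils. Col12a1 had 218 CPM in QS, 133 CPM in HS and 124 CPM in PF in fibroblast-like cells and 109.8 CPM in QS, 150.5 CPM in HS and 75.8 CPM in PF in tanycyte-like cells. Col16a1 had 61.6 CPM in QS, 44 CPM in HS and 57.8 CPM in PF in fibroblast-like cells. Col22a1, known from the junction of muscle and tendon, had 97.5 CPM in QS, 33.8 CPM in HS and 27.7 CPM in PF in fibroblast-like cells, and 26.3% of its 38 UMIs in QS came from 1 cell. Col9a3, a type IX chain known from cartilage, was highest in oligodendrocyte-like cells with 119.7 CPM in QS, 92.6 CPM in HS and 84.5 CPM in PF. The Col9a3 level was higher in QS than in the other libraries, with a QS/PF ratio of 1.42 (1.29 to 1.55) that did not reach 1.5-fold.

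The multiplexins, Col15a1 and Col18a1, are collagens of the basement membrane zone that carry sugar side chains. In fibroblast-like cells Col15a1 had 726 CPM in QS, 433 CPM in HS and 443 CPM in PF and Col18a1 had 128 CPM in QS, 68.9 CPM in HS and 83.6 CPM in PF. Smooth muscle-like cells had 57.6 CPM in QS, 41.1 CPM in HS and 52.4 CPM in PF of Col18a1. Col26a1, a collagen first described in reproductive tissue, had 131 CPM in QS, 91.7 CPM in HS and 102 CPM in PF in fibroblast-like cells and 44.5 CPM in QS, 59.8 CPM in HS and 55 CPM in PF in ependymal-like cells. Its gene overlaps Gm20485 on the same strand, so its counts may be divided between the 2.

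Transmembrane collagens sit in the cell membrane and can be shed. Col25a1 encodes a neuronal membrane collagen whose shed part is found in amyloid plaques, and Col23a1 a membrane collagen that binds integrins. Col25a1 (chr3:130131501-130599877, plus strand) had 1885 CPM in QS, 2957 CPM in HS and 2400 CPM in PF in tanycyte-like cells, and Col23a1 (chr11:51289920-51583918, plus strand) had 1417 CPM in QS, 1553 CPM in HS and 1581 CPM in PF. Col23a1 was found in 87.3% in QS, 85.7% in HS and 91.2% in PF of tanycyte-like cells thinned to 2000 UMIs, and Col25a1 in 35.2% in QS, 42.2% in HS and 33.5% in PF. In microglia-like cells these shares were 2.42% in QS, 2.34% in HS and 1.62% in PF for Col23a1 and 1.51% in QS, 1.02% in HS and 1.12% in PF for Col25a1. Col23a1 was thus in most cells of the class and Col25a1 in a part of them. Col13a1, a membrane collagen known from the nerve-muscle synapse, was highest in fibroblast-like cells with 282 CPM in QS, 196 CPM in HS and 213 CPM in PF.

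Col25a1 was present in both clusters of the class and higher in 1 of them. Cluster 26 (67 cells in QS, 143 in HS and 37 in PF), led by Il1rapl2, Scn7a and A2m and holding Dio2, the enzyme that activates thyroid hormone, had 4797 CPM in QS, 5292 CPM in HS and 5580 CPM in PF of Col25a1. Cluster 13 (281 cells in QS, 380 in HS and 154 in PF), led by Sgcz, Slit2 and Prr16, had 380.4 CPM in QS, 449 CPM in HS and 436 CPM in PF. Col12a1 had 255 CPM in QS, 274 CPM in HS and 182 CPM in PF in cluster 26 and 34.7 CPM in QS, 17.5 CPM in HS and 10.2 CPM in PF in cluster 13. Col23a1 was within 1.5-fold between them, with 1450 CPM in QS, 1348 CPM in HS and 1644 CPM in PF in cluster 26 and 1399 CPM in QS, 1773 CPM in HS and 1543 CPM in PF in cluster 13. Cluster 26 made up 19.3% of tanycyte-like cells in QS, 27.3% in HS and 19.4% in PF, and its cells were deeper, with median UMIs of 14550 in QS, 15240 in HS and 16650 in PF, against 6306 in QS, 5466 in HS and 6088 in PF in cluster 13.

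**Figure D4:**
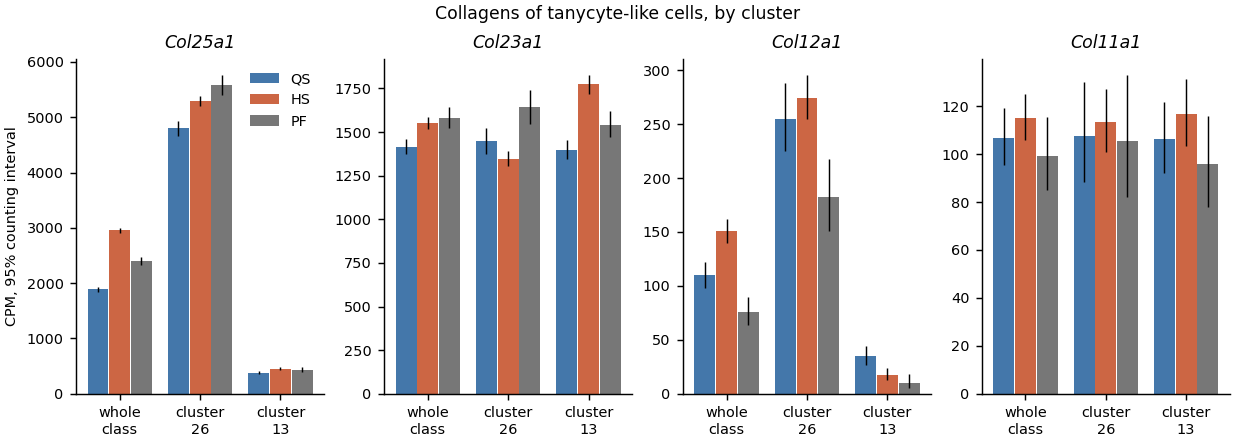
Levels (CPM, bars with exact 95% counting intervals, QS, HS and PF from left to right) of Col25a1, Col23a1, Col12a1 and Col11a1 in the whole tanycyte-like class and in its clusters 26 and 13. Col25a1 and Col12a1 were higher in cluster 26 than in cluster 13 in every library, while Col23a1 and Col11a1 were within 1.5-fold between the clusters.

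The 15 collagen genes described in no class were Col2a1, Col4a4, Col6a4, Col6a6, Col7a1, Col9a1, Col9a2, Col10a1, Col11a2, Col14a1, Col17a1, Col19a1, Col20a1, Col24a1 and Col28a1. They ranged from 14 UMIs for Col10a1 to 1945 UMIs for Col14a1 over the 3 libraries. The highest class mean among them was 33.6 CPM, for Col4a4 in pericyte-like cells.

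The comparison of heat-exposed with pair-fed mice asks what heat changes beyond lower food intake. In HS against PF 22 of 208 measured pairs of a collagen gene and a class were called, 17 higher and 5 lower, where measured means at least 30 UMIs in both libraries together. This was 10.6%, beside 4.83% over all genes in the same classes, 2.37% being higher and 2.46% lower. With 5% of free RNA subtracted the split was 12 higher and 11 lower. Of the 46 pairs that met the rule for description 1 was called. Col12a1 in tanycyte-like cells had 151 CPM in HS and 75.8 CPM in PF, a ratio of 1.99 (1.65 to 2.41). Within cluster 26 its ratio was 1.51 (1.24 to 1.84), at 37 cells in PF, and within cluster 13 it was 1.71 (0.865 to 3.68) and not called. In fibroblast-like cells 4 of 31 measured collagens were called, beside 5.48% of all genes, and all 4 were below 50 CPM. The median log2 ratio over the measured collagens of this class was 0.00, beside -0.04 over all genes. The described levels of Col1a1, Col1a2, Col4a1 and Col4a2 in fibroblast-like, pericyte-like, smooth muscle-like and endothelial-like cells stayed within 1.5-fold, the ratio farthest from 1 being 1.22 (1.11 to 1.35) for Col4a1 in fibroblast-like cells. Endothelial-like cells had Col4a1 and Col4a2 at 1.12 (1.08 to 1.15) and 1.16 (1.12 to 1.21).

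Of the 21 calls outside the described pairs in HS against PF, 4 were of Col25a1 and 3 of Col23a1. Col25a1 was called higher in astrocyte-like, endothelial-like, ependymal-like and oligodendrocyte-like cells, for example with 6.86 CPM in HS and 1.58 CPM in PF in endothelial-like cells. Tanycyte-like cells held 1885 CPM in QS, 2957 CPM in HS and 2400 CPM in PF. Over whole libraries Col25a1 had 76.6 CPM in QS, 168 CPM in HS and 53.2 CPM in PF, the same order as the tanycyte-like share of cells. The 12 tanycyte markers summed to 384 CPM in QS, 246 CPM in HS and 305 CPM in PF in endothelial-like cells and to 32 CPM in QS, 38.6 CPM in HS and 28.2 CPM in PF in oligodendrocyte-like cells. Beyond the 5% subtraction, the part of free RNA in these calls was not tested.

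Recovery was compared with pair feeding to see what remains after heat. In QS against PF 33 of 190 measured pairs were called, 10 higher and 23 lower, which was 17.4% beside 6.01% over all genes, 2.24% being higher and 3.77% lower. Outside the described pairs, calls lay below 50 CPM in both libraries except for Col23a1 in fibroblast-like and Col4a1 in T/NK-like cells. Col23a1 had 108 CPM in QS and 170 CPM in PF, and Col4a1 had 23.8 CPM in QS and 55.2 CPM in PF. Col1a1 in endothelial-like cells was lower (0.903 CPM in QS, 1.72 CPM in PF), as was Col4a1 in microglia-like cells (4.1 CPM in QS, 7.19 CPM in PF). Col25a1 in ependymal-like cells was higher (6.44 CPM in QS, 1.69 CPM in PF). Beyond the 5% subtraction, whose split is not given for this comparison, the part of free RNA in these calls was not tested. Of the 46 described pairs 8 were called, all in fibroblast-like cells. There Col22a1, Col12a1, Col4a1, Col15a1 and Col18a1 were higher in QS, and Col6a3, Col5a1 and Col27a1 were lower. Col22a1 met the rule for description through QS alone, and Col6a3, Col5a1 and Col27a1 through HS and PF alone, so the rule favoured their directions and their number supports nothing. The ratios were 3.52 (2.28 to 5.39) for Col22a1, 1.76 (1.36 to 2.26) for Col12a1, 1.7 (1.45 to 1.99) for Col4a1, 1.64 (1.43 to 1.87) for Col15a1 and 1.54 (1.1 to 2.11) for Col18a1. For the lower genes they were 0.358 (0.151 to 0.729) for Col6a3, 0.401 (0.188 to 0.761) for Col5a1 and 0.467 (0.25 to 0.807) for Col27a1. Over the 28 collagens measured in this class 11 were called, 5 higher and 6 lower, beside 12% of all genes, with a median log2 ratio of 0.18 beside 0.06 over all genes. These values rest on 70 QS cells with 389810 UMIs, against 2094580 UMIs in PF. A call of higher in QS therefore needed a higher level than a call of lower. The PF library also serves the comparison of HS with PF.

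The make-up of the fibroblast-like class differed between libraries. It held cluster 18, led by Dcn, Cemip and Mfap4, and cluster 25, led by Spp1, Dcn, Slc6a13 and Lama1. Cluster 25 made up 80% of the fibroblast-like cells in QS (56 of 70), 32.4% in HS (107 of 330) and 33.4% in PF (104 of 311). Col15a1 had 779 CPM in QS, 835 CPM in HS and 856 CPM in PF in cluster 25 and 499 CPM in QS, 317 CPM in HS and 291 CPM in PF in cluster 18. Col4a1 had 596 CPM in QS, 773 CPM in HS and 585 CPM in PF in cluster 25 and 351 CPM in QS, 284 CPM in HS and 225 CPM in PF in cluster 18. All 5 genes that were higher in QS over the class were higher in cluster 25 than in cluster 18 in HS and PF, and all 3 that were lower in QS were lower in cluster 25 in HS and PF. Col1a1, which was not called over the class, had 1210 CPM in QS, 829 CPM in HS and 1085 CPM in PF in cluster 25 and 1066 CPM in QS, 1194 CPM in HS and 1060 CPM in PF in cluster 18.

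Within cluster 25 alone, 21 collagens were measured in QS against PF and 0 were called, beside 7.18% of all genes there, although 7 of the 21 were called over the class. The cluster 25 ratios were 0.91 (0.777 to 1.06) for Col15a1, 1.02 (0.847 to 1.22) for Col4a1, 0.882 (0.666 to 1.16) for Col12a1, 1.19 (0.769 to 1.83) for Col22a1 and 0.729 (0.492 to 1.06) for Col18a1. Of the lower genes, Col27a1 was at 0.756 (0.337 to 1.58), and Col6a3 and Col5a1 had too few UMIs in the cluster to be measured. Cluster 18, with 14 cells in QS, had Col4a6 at 2.25 (1.71 to 2.93) and Col4a5 at 1.92 (1.45 to 2.5). Col15a1 was at 1.72 (1.19 to 2.4) there and Col3a1 at 1.56 (1.21 to 1.98), all called higher in QS against PF. This cluster held few UMIs in QS, where 2 UMIs of Abcc9 made 26.98 CPM, against 25 UMIs for 16.33 CPM in PF. The count minimum therefore let only collagens of high level be called higher in QS. No share of all genes called is given for cluster 18, so these calls support no direction. Summed markers of other cell types also differed between the libraries in this class. The 10 pericyte markers summed to 3674 CPM in QS, 1253 CPM in HS and 1417 CPM in PF in the class, to 4435 CPM in QS, 4363 CPM in HS and 3728 CPM in PF in cluster 25 and to 432 CPM in QS, 348 CPM in HS and 564 CPM in PF in cluster 18. Vtn, which encodes vitronectin, made up most of this sum, with 4064 CPM in QS, 4052 CPM in HS and 3402 CPM in PF in cluster 25, where Atp13a5 was at 0 in QS. The 12 astrocyte markers summed to 1167 CPM in QS, 567 CPM in HS and 643 CPM in PF in the class and the 12 endothelial markers to 906 CPM in QS, 1298 CPM in HS and 864 CPM in PF. Their part in the collagen ratios was not tested.

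**Figure D5:**
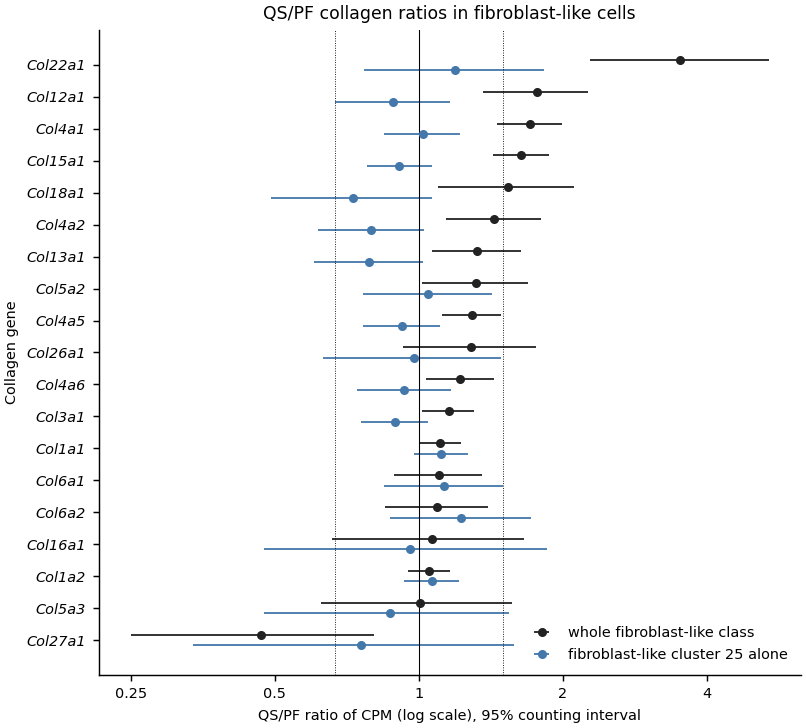
QS/PF ratio of CPM (log axis, exact 95% counting intervals) for the 19 collagen genes described in fibroblast-like cells and measured in cluster 25, in the whole fibroblast-like class (black, 70 QS and 311 PF cells) and in its cluster 25 alone (blue, 56 QS and 104 PF cells), with dotted lines at 1.5-fold either way. The 5 genes past 1.5 over the class, such as Col22a1 and Col15a1, lie between the dotted lines in cluster 25.

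For recovery against heat exposure, 34 of 195 measured pairs were called in QS against HS, 8 higher and 26 lower, which was 17.4% beside 6.5% over all genes, 2.62% being higher and 3.89% lower. With 5% of free RNA subtracted the split was 12 higher and 19 lower. Of the 46 described pairs 9 were called. Again 8 lay in fibroblast-like cells, where 10 of 30 measured collagens were called beside 13.9% of all genes, with Col22a1 at 2.88 (1.91 to 4.28), Col18a1 at 1.86 (1.33 to 2.57), Col5a2 at 1.79 (1.38 to 2.31), Col15a1 at 1.68 (1.46 to 1.91) and Col12a1 at 1.64 (1.28 to 2.09) higher in QS. Col6a3 at 0.323 (0.137 to 0.652), Col5a1 at 0.346 (0.163 to 0.651) and Col27a1 at 0.363 (0.195 to 0.621) were lower. The rule for description favoured the directions of Col22a1, Col6a3, Col5a1 and Col27a1 here as well, so the number of these calls supports nothing. Both comparisons share the QS library and its 70 cells, so they are not independent. Within cluster 25, 3 of 21 measured collagens were called in QS against HS, beside 10.2% of all genes there, namely Col6a2 at 1.6 (1.11 to 2.29), Col23a1 at 0.638 (0.423 to 0.942) and Col27a1 at 0.482 (0.223 to 0.958). In HS against PF 2 of 21 were called in that cluster, beside 5.86% of all genes, Col3a1 at 0.653 (0.563 to 0.756) and Col26a1 at 0.633 (0.418 to 0.949). Over the class Col3a1 had been at 0.913 (0.849 to 0.982).

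The remaining described call was Col25a1 in tanycyte-like cells, with 1885 CPM in QS and 2957 CPM in HS, a ratio of 0.637 (0.618 to 0.657). Inside the clusters the ratio was 0.906 (0.877 to 0.937) in cluster 26 and 0.847 (0.77 to 0.93) in cluster 13, both short of 1.5-fold. Cluster 26, where Col25a1 was higher, made up 19.3% of the class in QS and 27.3% in HS.

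Endothelial-like cells held low levels of further collagens that sat in single clusters. Cluster 30, led by Plvap, Igfbp3 and Esm1, of which Plvap marks fenestrated vessels, had 5 cells in QS, 93 in HS and 71 in PF. It held 597 CPM in QS, 239.7 CPM in HS and 301 CPM in PF of Col13a1 and 56.9 CPM in QS, 155 CPM in HS and 179 CPM in PF of Col15a1, against at most 2.77 CPM of either in the other endothelial-like clusters. Over the endothelial-like class Col13a1 was 0.124 (0.0763 to 0.193) and Col15a1 0.0784 (0.0369 to 0.148) in QS against PF, both called lower, at levels of 0.993 CPM in QS and 8 CPM in PF for Col13a1. The number of cluster 30 cells moved in the same direction, and its part in these ratios was not tested. Col6a6 was found in cluster 12, led by Lcn2, Ackr1 and Lrg1, with 13.8 CPM in QS, 25.8 CPM in HS and 38.1 CPM in PF there and a QS/PF ratio of 0.362 (0.26 to 0.495). Col18a1 was led by cluster 4, with Gkn3 and Ly6c1 among its leading genes, at 54.9 CPM in QS, 58.6 CPM in HS and 55.2 CPM in PF.

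Genes that build, cross-link, bind or break down collagen were read in the same way. In fibroblast-like cells 5.48% of all genes were called in HS against PF and 12% in QS against PF, and the counts of each list stand beside these shares. The class held 389810 UMIs in QS and 2094580 in PF, so a call of higher in QS needed a higher level. The split of list calls into higher and lower in QS against PF therefore supports no direction. The list of synthesis and processing genes had 22 of 27 members measured in fibroblast-like cells, and 0 were called in HS against PF, with 2 higher and 0 lower in QS against PF. Pcolce, which speeds the trimming of procollagen, had 995 CPM in QS, 567 CPM in HS and 658 CPM in PF. Serpinh1, the collagen chaperone HSP47, had 962 CPM in QS, 1220 CPM in HS and 912 CPM in PF, and was called in no comparison. Of 5 measured cross-linking genes 2 were lower in QS against PF, namely Lox at 0.187 (0.0501 to 0.492) and Loxl1. Lox rested on 4 UMIs in QS, and the highest ratio among the 5, at 2.32, was not called. Loxl1, a lysyl oxidase relative, had 66.7 CPM in QS, 213 CPM in HS and 159.5 CPM in PF. Among 6 measured receptor and uptake genes in QS against PF, Itga1, the collagen-binding alpha1 integrin, was higher at 2.34 (1.6 to 3.37) and Ddr2, a receptor kinase for fibrillar collagen, was lower, with 48.7 CPM in QS, 108 CPM in HS and 105 CPM in PF. Of 7 measured degradation genes 1 was higher and 3 were lower in QS against PF. Timp2, an inhibitor of matrix proteases, was lower at 0.51 (0.415 to 0.62), and the protease gene Mmp2 had 118 CPM in QS, 229.8 CPM in HS and 180.5 CPM in PF.

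Basement membrane partners had 11 of 15 members measured in fibroblast-like cells, with 2 higher and 0 lower in QS against PF and 1 lower in HS against PF. Lama1, the laminin alpha1 chain, had 1085 CPM in QS, 397 CPM in HS and 449 CPM in PF, and Lamc1, the laminin gamma1 chain, had 769.6 CPM in QS, 319.8 CPM in HS and 379 CPM in PF. Interstitial matrix partners had 14 of 15 measured, with 4 higher and 2 lower in QS against PF and 1 higher and 2 lower in HS against PF. Postn, a matrix protein that binds fibrils, had 133 CPM in QS, 10.6 CPM in HS and 43.9 CPM in PF, and Fmod, a fibril-binding proteoglycan, had 154 CPM in QS, 24 CPM in HS and 41.5 CPM in PF. Genes of TGF-beta signalling had 14 of 15 measured, with 3 higher and 2 lower in QS against PF, and 0 of 15 called in HS against PF. Ccn2, a TGF-beta target, had 885 CPM in QS, 268 CPM in HS and 342 CPM in PF, and Ltbp4, a binding protein of latent TGF-beta, had 77 CPM in QS, 233 CPM in HS and 226 CPM in PF. The median log2 ratio in QS against PF was 0.08 for synthesis, -0.26 for cross-linking, 0.53 for receptors, -0.55 for degradation, 0.25 for basement membrane partners, 0.12 for interstitial partners and 0.00 for TGF-beta signalling, beside 0.06 over all genes.

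The same lists were read within cluster 25 of the fibroblast-like cells in QS against PF. Lama1, a leading gene of that cluster, was at 0.82 (0.728 to 0.922), Lamc1 at 0.954 (0.819 to 1.11), Ccn2 at 1.14 (0.992 to 1.31) and Fmod at 1.26 (0.884 to 1.77), none of them called. Ddr2 was called lower in the cluster as well, at 0.498 (0.273 to 0.864). Of the 67 genes of these lists measured there 3 were called in QS against PF, 7 of 69 in HS against PF and 11 of 64 in QS against HS, beside 7.18% of all genes in QS against PF, 5.86% in HS against PF and 10.2% in QS against HS. Postn had a HS/PF ratio of 0.26 (0.13 to 0.485) and a QS/HS ratio of 5.26 (2.75 to 10.7) in cluster 25, and both were called. Timp2 had 0.538 (0.402 to 0.715) in HS against PF and 1.8 (1.3 to 2.5) in QS against HS in that cluster.

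In tanycyte-like cells P3h2, which hydroxylates prolines of type IV collagen, had 91.9 CPM in QS, 149 CPM in HS and 173 CPM in PF, a QS/PF ratio of 0.53 (0.448 to 0.626). In ependymal-like cells Pcolce2, a relative of Pcolce, was higher in QS against PF, with 53.5 CPM in QS and 32.6 CPM in PF, a ratio of 1.64 (1.45 to 1.87).

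The genes closest to selected collagens were ranked by Pearson's r of log2(CPM + 1) over the 12 classes, averaged over the libraries, as a description without a test. Closest to Col4a1 were Col4a2 (r = 0.98), Zic2 (0.96) and Ppic (0.95). Closest to Col1a1 were Necab1 (0.94), Gjb2 (0.93) and Cpxm1 (0.93). For the tanycyte-like collagens they were Rspo3 (0.99), A2m (0.96) and Col23a1 (0.95) for Col11a1, then Crym (0.97), Fgf10 (0.97) and Efna5 (0.95) for Col23a1, and Fndc3c1 (0.98), Il1rapl2 (0.97) and Kcnh7 (0.96) for Col25a1. Crym and Fndc3c1 are markers that helped to name the class, and the 12 points share libraries and depth.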

How the data were processed

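Gene by cell UMI counts of the 3 libraries were used as deposited by the authors. The submitters' processing notes name Cell Ranger 5.0.0, Seurat 3.1.2 and mm10, whereas the file header names Cell Ranger 7.0.1. No source used here states whether introns were counted. CPM were computed here from the authors' deposited counts.

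Low-quality barcodes (211 in QS, 208 in HS, 194 in PF) and doublets predicted by Scrublet as run in Scanpy 1.11.5 (727 in QS, 672 in HS, 784 in PF) were removed. The Leiden algorithm (leidenalg 0.10.2) gave 37 clusters on 1985 variable genes, after 15 collagens were left out, and 33 were named from markers, with thresholds set after the clusters were seen. The marker gate in each cell was run as an alternative. UMIs were summed per class and library. Intervals are exact Poisson for levels, exact conditional binomial for ratios and exact Clopper-Pearson for shares, at 95%, and cover counting error only. PCR copies are collapsed by UMIs. With 1 library per group there was no test.

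Genes were described by the level rule given in the results. The collagens and the gene lists were chosen with earlier results of these data known. The rule for calling ratios was tested on simulated counts at the HS and PF depths of fibroblast-like and endothelial-like cells. Those counts held counting error only, so the test does not cover spread between cells or mice. Clustering and the naming of clusters were not tested in this way. Gene positions are those of mm10 with GENCODE M21. Alternatives changed the cell filter, doublets, clustering, gate, scaling, free RNA, count minimum and single cells.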

Additional observations from a re-analysis of the deposited data

Results flagged for a closer look

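Col22a1 moved in opposite directions in a pair of classes in QS against HS, with a ratio of 0.637 (0.487 to 0.828) in ependymal-like cells and 2.88 (1.91 to 4.28) in fibroblast-like cells. The level in ependymal-like cells was 7.18 CPM in QS, 11.3 CPM in HS and 9.14 CPM in PF. Col4a4 did so in QS against PF, with 1.53 (1.18 to 2.0) in ependymal-like cells and 0.32 (0.101 to 0.776) in fibroblast-like cells, the second resting on 5 UMIs in QS. The difference between the classes was not tested for either gene, since each group had 1 library.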

How the results depend on the processing

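No paired analysis was possible because each group had 1 library. The share of collagen UMIs in fibroblast-like cells was 6.09% in QS and 19.7% in PF with the marker gate. It was 5.93% in QS, 17.9% in HS and 21.2% in PF with 5% free RNA subtracted, and 8.06% in QS, 25.4% in HS and 32.9% in PF without cells of other classes that held 2 fibroblast markers. The collagen level of the library was 589 CPM in QS, 914 CPM in HS and 718 CPM in PF with the gate, and 639 CPM in QS, 988 CPM in HS and 740 CPM in PF without the cell with most collagen UMIs. Without cells holding 2 fibroblast markers it was 1103 CPM in HS and 807 CPM in PF. With at least 100 UMIs in the library with more, 7 pairs were called in HS/PF, 14 in QS/PF and 13 in QS/HS, and with no filter on low counts 42 were called in HS/PF and 52 in QS/HS. With 5% free RNA subtracted the split was 12 higher and 11 lower in HS/PF, against 17 and 5 without, and 12 higher and 19 lower in QS/HS, against 8 and 26 without. Col18a1 in fibroblast-like cells was called in QS/PF under 7 of 11 alternatives and Col22a1 under 9 of 11. Cluster alternatives were chosen after seeing the data. In cluster 25 alone the ratio lay below 1, against above 1 over the class, in QS/PF for Col12a1 (0.882), Col15a1 (0.910) and Col18a1 (0.729). The same held in QS/HS for Col12a1 (0.681), Col15a1 (0.934), Col18a1 (0.779) and Col22a1 (0.843). None of these was called in the cluster, and the QS/PF intervals included 1, so they do not show a change of direction. That setting leaves 56 QS cells, and the cause was not tested. Tanycyte-like cells numbered 80 in QS, 158 in HS and 41 in PF with doublets kept, 68 in QS, 143 in HS and 37 in PF with collagens among the clustering genes, and 68 in QS, 150 in HS and 43 in PF with the gate, so the class fell under 50 cells in PF and was not compared, including the Col25a1 call in QS/HS. The 70 fibroblast-like cells of QS limit the depth there.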

Other observations

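Neuron-like cells, of which there were 58 in QS, 38 in HS and 47 in PF, were left out of the class comparisons because HS and PF had fewer than 50. They held Col25a1 at 584 CPM in QS, 749 CPM in HS and 591 CPM in PF. An unnamed cluster of 143 cells in QS, 192 in HS and 223 in PF, led by Gkn3, Mgp and Fbln5, held Col18a1 at 183 CPM in QS, 175 CPM in HS and 175 CPM in PF.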
